A study of Bos taurus with 6 samples.

Results

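The genes examined here encode proteins that sense DNA damage and repair it. They were chosen by symbol, as 49 genes of the checkpoint and of the main repair routes, and 48 of them matched 1 row each of a table of 36075 genes, whereas UNG was not analysed here. RNA was measured in bovine (Bos taurus) blastocysts, embryos at the stage of the first cell lineages, in 2 groups of 3 libraries. In the MT group, cumulus-oocyte complexes were matured in vitro for 22 h in medium with melatonin at 1e-07 mol/L. In the control group, maturation was performed without melatonin. In both groups the complexes came from slaughterhouse ovaries and were fertilised and cultured in vitro to the blastocyst stage, so the embryos were measured days after the exposure of the oocyte. Each library was a pool of 3 blastocysts, and the methods describe 3 independent production runs per group, with all treatments handled concurrently within a run. The comparison of the groups asks how the levels of these transcripts differed in blastocysts after melatonin had been given to the oocyte.

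Cells recognise broken DNA through sensor proteins that load onto the break and activate the kinases ATM, ATR and the DNA-dependent protein kinase. ATR and ATM act through CHEK1 and CHEK2 to hold the cell cycle while the break is rejoined by end joining or copied from the sister chromatid by homologous recombination. Damaged bases, mismatches, bulky adducts and crosslinks are removed by base excision, mismatch, nucleotide excision and Fanconi anaemia repair. Early embryos divide rapidly and are known to rely on stored maternal transcripts first and on their own transcription later.

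Levels are in TPM (transcripts scaled by gene length and library total), the deposited unit, so that levels of different genes may be compared. The deposited values summed to 936783 to 937698 in the control libraries and 912686 to 913707 in the MT libraries. The totals were therefore not equal between the groups, which bears on small differences. TPM keeps no read counts, and the depth of each library and the counting error of each value are therefore unknown. The control libraries listed 8854 to 8953 genes above 0 and the MT libraries 14372 to 14408. Across the tested genes, the correlation of log2(TPM + 1) between libraries was 0.991 to 0.999 within a group and 0.544 to 0.546 between the groups (taken across genes, and genes are no replicates). Of the trophectoderm markers, 6 of 7 were above 0 in control and 7 of 7 in MT, with a summed level of 11450 to 11790 TPM in control and 10660 to 11010 TPM in MT. In the test described below, 6 of these markers were higher in MT and 1 was lower. The lower one was KRT8, which made up most of the sum, with a mean of 8695 TPM in control and 6905 TPM in MT. CDX2 and NANOG, defining factors of the trophectoderm and the inner cell mass, were listed at 0 in all control libraries and had a mean of 16.1 and 8.68 TPM in MT, while POU5F1 had a mean of 189.8 and 193 TPM. The summed hypoblast markers were 205 to 208 TPM in control and 524 to 528 TPM in MT, with 3 of 5 markers (SOX17, PDGFRA and HNF4A) listed at 0 in control. Most of this sum was FN1, with a mean of 206 TPM in control and 461 TPM in MT. The summed inner cell mass markers were 220.1 to 221 TPM in control and 302 to 305 TPM in MT. Among them KLF4 had a mean of 18.1 TPM in control and 83.8 TPM in MT, whereas POU5F1 and PRDM14 did not differ at the threshold used below. Of the cumulus and granulosa cell markers, 1 of 7 (FSHR) was above 0 in control and 3 of 7 in MT, with a sum of 17.2 to 19.2 and 15.1 to 17.1 TPM. Of the maternal oocyte transcripts, 1 of 8 (OOEP) was above 0 in control and 3 of 8 in MT, with a sum of 45.6 to 49.3 and 21.6 to 24.0 TPM. The part that cell composition and the number of detected genes had in the differences below was not tested. In pools of whole embryos, fewer cells of a type and less RNA per cell cannot be told apart.

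The repair genes differed between the groups in both directions. The test, limma on log2(TPM + 1), took genes that reached 1 TPM in 3 or more libraries, which left 44 of the 48 repair genes, with Benjamini-Hochberg adjustment over all 11953 genes tested. At an adjusted p under 0.05, 24 of the repair genes rose in MT and 20 fell, where 61.6% of all tested genes were higher, 34.1% were lower and 95.7% were called in either direction. The MT values lay apart from the control values for all 44 tested repair genes, as they did for 96.1% of all tested genes. Shares this close to those of all genes describe the libraries as a whole, and the results below are therefore given gene by gene. Of the 44 genes, 19 passed the minimum level only through the MT libraries and 4 only through the control libraries (RAD52, BRCA1, PALB2 and ERCC5), so that the direction of these genes was favoured by the filter itself. The median log2 difference was 1.14 over the 44 repair genes and 1.12 over all tested genes, or 0.856 over the tested genes with a symbol. Among the 21 repair genes with at least 1 TPM in all 6 libraries it was -0.69, with 5 genes higher and 16 lower, where the 5988 such genes of the table had a median of -0.27, 36.4% higher and 55.6% lower. Log2 differences below are MT minus control on the log2(TPM + 1) scale, with the standard error of the limma fit, and fold values are ratios of mean TPM. For a single gene, 3 libraries against 3 allow no p-value below 0.1 in a two-sided exact permutation test.

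**Figure D1:**
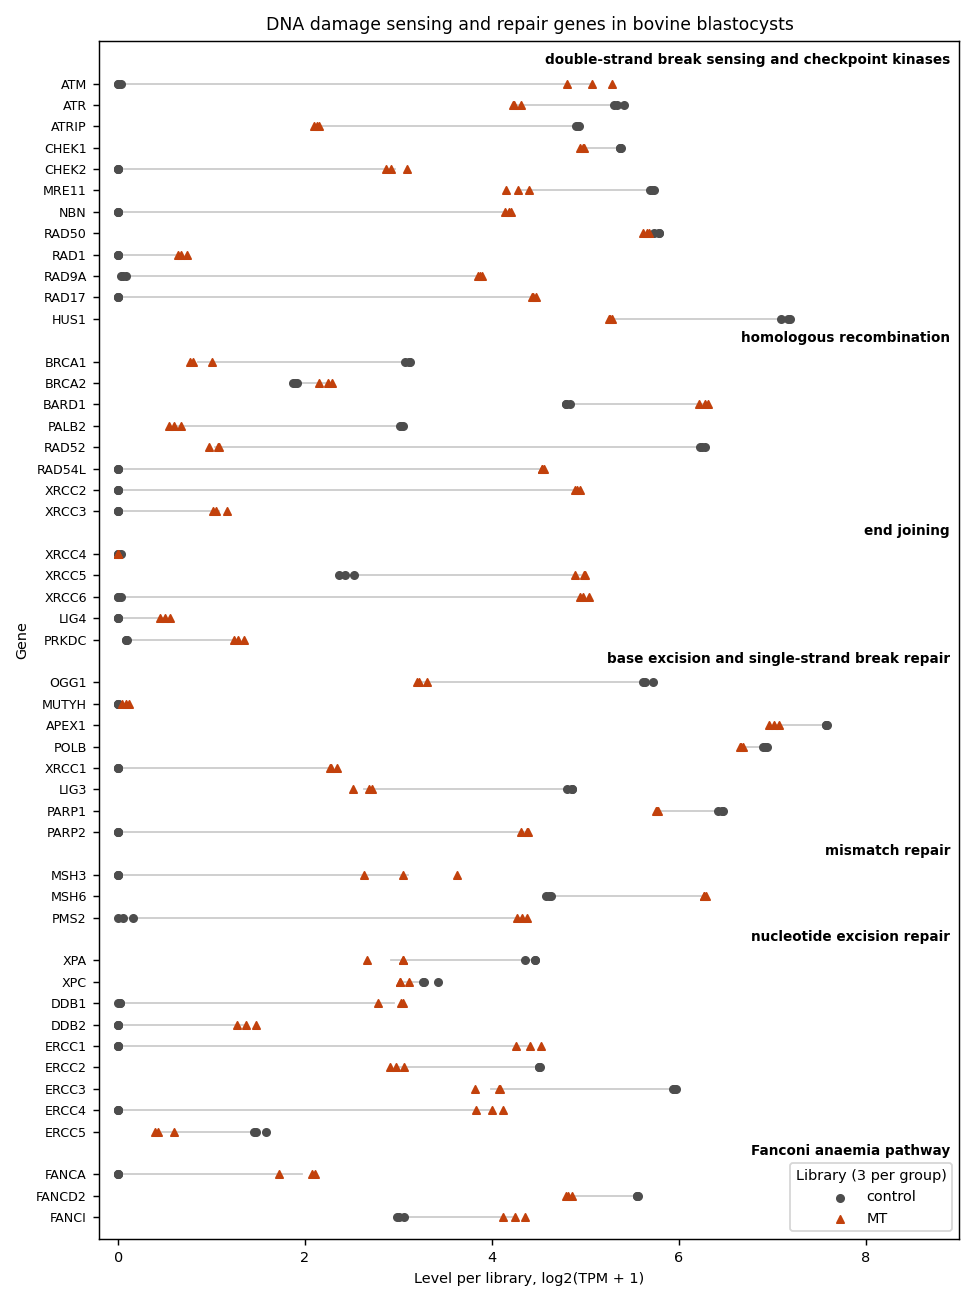
Level of each of the 48 repair genes in every library, on the log2(TPM + 1) scale, by repair route. Grey circles are the 3 control libraries, orange triangles the 3 MT libraries, and the line joins the group means. In control, 23 genes lie at or below 0.12 TPM and the other 25 at 1.74 TPM or above, whereas in MT 6 genes lie under 1 TPM in all libraries.

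For 23 of the 48 genes every control value was 0.12 TPM or less, and for the other 25 every control value was 1.74 TPM or more, limits that were read from these genes themselves. Every control value was listed at 0 for 13 of the tested repair genes (33.8% of all tested genes), and 19 were under 1 TPM throughout control (42.5% of all tested genes). Among repair genes with an MT mean of 20 to 100 TPM, 4 of 14 were listed at 0 in control (23.8% of all tested genes at that level), and among those at 5 to 20 TPM, 5 of 17 were (47.2% of all tested genes at that level). A value of 0 does not tell an absent transcript from a missed one, and for these genes the value of each library is given without a fold change. The summed level of all 48 genes was 1130 to 1152 TPM in control and 992 to 1001 TPM in MT. The 20 genes that were lower in MT summed to 1065 to 1087 TPM in control and 514 to 521.5 TPM in MT, and the 24 that were higher to 64.5 to 65.1 and 472 to 478 TPM.

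**Figure D2:**
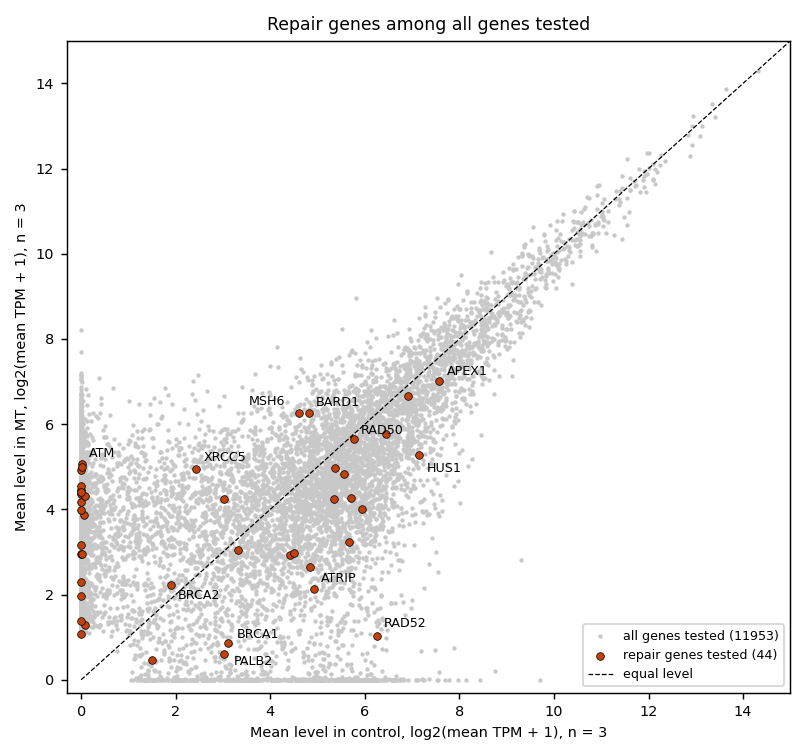
Mean level in MT against mean level in control, both as log2(mean TPM + 1) over 3 libraries, for the 44 tested repair genes (orange) and all 11953 tested genes (grey), with a dashed line of equal level. Of the repair genes, 19 stand at the left edge with under 1 TPM in every control library, and RAD52 is farthest below the line.

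Among the 12 genes of damage sensing and checkpoint signalling, 5 were higher and 6 lower in MT (61.6% and 34.1% of all tested genes). RAD1 did not reach the tested level. The 5 higher genes, ATM, CHEK2, NBN, RAD9A and RAD17, passed only through the MT libraries and so had to be higher. ATM (ENSBTAG00000003111), the kinase activated by double-strand breaks, had 0, 0 and 0.02 TPM in control and 26.9, 32.6 and 38.0 TPM in MT. Its counterpart ATR (ENSBTAG00000011529), which responds to stretches of single-stranded DNA, had 41.5, 38.4 and 39.5 TPM in control and 17.6, 18.8 and 17.8 TPM in MT. This was a fall of 2.20-fold in mean TPM (log2 difference -1.10, standard error 0.04, adjusted p = 4.50e-07). ATM stood below ATR in each control library and above it in each MT library, and it reached the tested level only through MT.

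ATRIP (ENSBTAG00000008399), the partner that brings ATR to DNA, had 29.3, 28.9 and 29.5 TPM in control and 3.26, 3.37 and 3.42 TPM in MT, an 8.73-fold fall (log2 difference -2.80, standard error 0.03, adjusted p = 1.84e-09). Of the effector kinases, CHEK1 (ENSBTAG00000017582), the main target of ATR, had 40.5, 40.2 and 40.3 TPM in control and 30.5, 30.6 and 29.7 TPM in MT (log2 difference -0.40, standard error 0.02, adjusted p = 4.45e-06), a fall that was reversed after median centring. CHEK2 (ENSBTAG00000004956), the main target of ATM, was listed at 0 in each control library and at 6.28, 7.51 and 6.56 TPM in MT. In TPM as deposited, ATR, ATRIP and CHEK1 were therefore lower in every MT library than in any control library, whereas the values of ATM and CHEK2, which passed only through MT, were higher.

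The sensor of double-strand breaks is a complex of MRE11, RAD50 and NBN. RAD50 (ENSBTAG00000011252), which tethers the broken ends, had 52.0, 54.0 and 54.0 TPM in control and 48.0, 50.1 and 49.4 TPM in MT, the smallest difference among the tested repair genes (log2 difference -0.12, standard error 0.03, adjusted p = 0.00686), and it was reversed under both other scalings. The nuclease MRE11 (ENSBTAG00000008925) had 50.7, 52.0 and 51.2 TPM in control and 20.01, 18.5 and 16.7 TPM in MT, a 2.79-fold fall (log2 difference -1.44, standard error 0.06, adjusted p = 1.13e-06). NBN (ENSBTAG00000013225), which carries the complex to the nucleus and binds ATM, was listed at 0 in each control library and at 16.6, 17.2 and 17.4 TPM in MT. In MT, NBN and MRE11 stood at similar levels and RAD50 above both, and in control MRE11 and RAD50 stood side by side with NBN listed at 0.

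A ring of RAD9A, RAD1 and HUS1, loaded by RAD17, marks DNA for ATR. HUS1 (ENSBTAG00000013226) had 143, 136 and 144 TPM in control and 37.0, 38.0 and 37.4 TPM in MT, a 3.76-fold fall (log2 difference -1.88, standard error 0.03, adjusted p = 7.67e-09). RAD9A had 0.04, 0.06 and 0.02 TPM in control and 13.8, 13.4 and 13.6 TPM in MT. RAD1 was listed at 0 in each control library and at 0.66, 0.59 and 0.56 TPM in MT, below the tested level. The loader RAD17 was listed at 0 in each control library and at 21.1, 20.5 and 20.7 TPM in MT. HUS1 was the most abundant of these genes in both groups, and in control it was the only gene of the ring and its loader above 0.06 TPM.

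Homologous recombination restores a break from an intact copy. Of its 8 genes, 5 rose and 3 fell in MT (61.6% and 34.1% of all tested genes). RAD54L, XRCC2 and XRCC3 passed only through the MT libraries and so had to be higher. The lower genes, RAD52, BRCA1 and PALB2, passed only through control, which favoured a fall. RAD52 (ENSBTAG00000005225), which anneals single strands, had 74.8, 73.8 and 76.5 TPM in control and 1.09, 0.96 and 1.11 TPM in MT. Mean TPM was 71.2-fold lower in MT (log2 difference -5.21, standard error 0.04, adjusted p = 6.71e-10), the largest fall among the repair genes, in a gene that passed the minimum level only through control. BRCA1 (ENSBTAG00000022520), which promotes resection of the broken ends, had 7.70, 7.64 and 7.37 TPM in control and 0.74, 1 and 0.70 TPM in MT, a 9.31-fold fall (log2 difference -2.24, standard error 0.07, adjusted p = 1.76e-07), with the same limit as RAD52. Its ubiquitin ligase partner BARD1 (ENSBTAG00000033690) moved the other way, from 26.8, 27.6 and 26.8 TPM in control to 78.5, 73.2 and 76.5 TPM in MT (log2 difference 1.46, standard error 0.03, adjusted p = 4.12e-08).

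PALB2 (ENSBTAG00000006405), which links BRCA1 to BRCA2, had 7.15, 7.29 and 7.08 TPM in control and 0.46, 0.51 and 0.59 TPM in MT, a 13.8-fold fall (log2 difference -2.43, standard error 0.04, adjusted p = 1.16e-08). It passed the minimum level only through control, which favoured a fall. BRCA2 (ENSBTAG00000000988), which loads the recombinase on DNA, had 2.66, 2.72 and 2.78 TPM in control and 3.42, 3.74 and 3.87 TPM in MT (log2 difference 0.33, standard error 0.05, adjusted p = 5.24e-04). The groups did not overlap for either gene, but the rise of BRCA2 was the smallest among the 24 higher genes and was reversed after quantile normalization (log2 difference -1.77). RAD54L, a motor protein that helps strand invasion, was listed at 0 in each control library and at 22.1, 22.6 and 22.2 TPM in MT. Of the recombinase accessory genes, XRCC2 was listed at 0 in each control library and at 29.8, 29.0 and 28.6 TPM in MT, and XRCC3 was listed at 0 in each control library and at 1.24, 1.02 and 1.07 TPM in MT, a rise that was reversed after quantile normalization.

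Among the 5 genes of end joining, which ligates broken ends directly, 3 reached the tested level and were higher in MT (61.6% of all tested genes), of which XRCC6 and PRKDC passed only through the MT libraries and so had to be higher. The Ku heterodimer, which caps DNA ends, is encoded by XRCC5 and XRCC6. XRCC5 (ENSBTAG00000010426) had 4.14, 4.37 and 4.74 TPM in control and 30.6, 28.6 and 30.8 TPM in MT, a ratio of mean TPM of 6.79 (log2 difference 2.52, standard error 0.05, adjusted p = 3.13e-08). XRCC6 (ENSBTAG00000006103) had 0, 0.02 and 0 TPM in control and 31.9, 29.8 and 30.3 TPM in MT. The subunits thus had almost equal levels in MT and in control only XRCC5 was above 1 TPM.

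PRKDC, the catalytic subunit of the DNA-dependent protein kinase that Ku recruits, was low in both groups, with 0.06, 0.07 and 0.06 TPM in control and 1.44, 1.54 and 1.36 TPM in MT, a rise that was reversed after quantile normalization. The ligase LIG4 was listed at 0 in each control library and at 0.36, 0.47 and 0.42 TPM in MT, and its scaffold XRCC4 had 0, 0.02 and 0 TPM in control and was listed at 0 in every MT library. LIG4 and XRCC4 were therefore under 0.5 TPM in MT while both Ku genes were near 30 TPM. NHEJ1, which acts with them at ligation, is in the wider list below and was picked out after its values were seen, and it had 43.6, 42.9 and 43.8 TPM in control and 39.4, 37.7 and 41.1 TPM in MT. XRCC4 was the only repair gene listed at 0 throughout the MT group.

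Of 8 measured genes of base excision and single-strand break repair, 2 rose and 5 fell in MT (61.6% and 34.1% of all tested genes). MUTYH did not reach the tested level. The higher genes, XRCC1 and PARP2, passed only through the MT libraries and so had to be higher. The 5 lower genes had at least 1 TPM in all 6 libraries, and 55.6% of all such genes were lower. The core enzymes APEX1, POLB and PARP1 were among the most abundant repair transcripts, and each fell modestly. APEX1 (ENSBTAG00000002745), which cuts the backbone at a lost base, had 189.6, 191 and 189.6 TPM in control and 124, 129 and 133 TPM in MT, and ranked first in MT as well (log2 difference -0.56, standard error 0.03, adjusted p = 2.41e-06). POLB (ENSBTAG00000000225), the polymerase that fills the gap, had 122, 118 and 120.5 TPM in control and 102, 100.1 and 99.5 TPM in MT (log2 difference -0.25, standard error 0.02, adjusted p = 2.70e-05), reversed after median centring and not called after quantile normalization. PARP1 (ENSBTAG00000000837), which senses strand breaks by making poly(ADP-ribose), had 87.9, 84.3 and 87.3 TPM in control and 53.2, 52.8 and 53.6 TPM in MT (log2 difference -0.69, standard error 0.02, adjusted p = 2.96e-07).

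OGG1 (ENSBTAG00000007777), the glycosylase that removes oxidised guanine, differed more, with 48.8, 47.9 and 51.6 TPM in control and 8.89, 8.15 and 8.28 TPM in MT. This was a 5.86-fold fall (log2 difference -2.42, standard error 0.05, adjusted p = 1.72e-08). MUTYH, which removes adenine paired with oxidised guanine, was listed at 0 in each control library and at 0.03, 0.06 and 0.08 TPM in MT. The ligase LIG3 (ENSBTAG00000018689) had 28.0, 27.9 and 26.9 TPM in control and 5.55, 5.43 and 4.69 TPM in MT, a 5.28-fold fall (log2 difference -2.20, standard error 0.06, adjusted p = 1.05e-07). XRCC1, the scaffold that binds LIG3 and POLB, was listed at 0 in each control library and at 4.05, 3.84 and 3.80 TPM in MT, and was not called after quantile normalization. PARP2, the second strand-break sensor, was listed at 0 in each control library and at 19.8, 19.9 and 18.8 TPM in MT, below PARP1 in each library.

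The 3 mismatch repair genes were higher in MT (61.6% of all tested genes), of which MSH3 and PMS2 passed only through the MT libraries and so had to be higher. MSH6 (ENSBTAG00000001424), which recognises single mispaired bases, had 23.8, 22.9 and 23.5 TPM in control and 75.8, 77.0 and 76.0 TPM in MT, a ratio of mean TPM of 3.26 (log2 difference 1.66, standard error 0.02, adjusted p = 5.47e-09). MSH3 (ENSBTAG00000007684), which recognises larger loops, was listed at 0 in each control library and at 11.3, 7.26 and 5.18 TPM in MT, and was not called after quantile normalization. PMS2, a nuclease subunit that nicks the strand in error, had 0.12, 0 and 0.04 TPM in control and 19.1, 19.8 and 18.2 TPM in MT. Of these 3 genes, only MSH6 was above 1 TPM in control, and only APEX1 and POLB had a higher mean level among the repair genes in MT.

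Nucleotide excision repair cuts out a stretch of damaged strand. Of its 9 genes, 4 rose and 5 fell in MT (61.6% and 34.1% of all tested genes). The higher genes, DDB1, DDB2, ERCC1 and ERCC4, passed only through the MT libraries and so had to be higher. The damage sensor XPC had 8.65, 8.56 and 9.68 TPM in control and 7.64, 7.07 and 7.10 TPM in MT (log2 difference -0.27, standard error 0.06, adjusted p = 0.00414), reversed after median centring. The subunits of the other sensor, which recognises lesions made by ultraviolet light, were at or near 0 in control. DDB1 had 0.01, 0 and 0.01 TPM in control and 7.16, 5.89 and 7.27 TPM in MT, and DDB2 was listed at 0 in each control library and at 1.58, 1.78 and 1.41 TPM in MT, and after quantile normalization DDB1 was not called and DDB2 was lower. XPA (ENSBTAG00000009734), which verifies the lesion, had 21.1, 19.4 and 21.0 TPM in control and 7.24, 5.32 and 7.26 TPM in MT, a 3.10-fold fall (log2 difference -1.51, standard error 0.11, adjusted p = 2.00e-05).

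The helicases of TFIIH, the complex that opens the DNA, fell together. ERCC3 (ENSBTAG00000020777) had 60.5, 60.0 and 61.4 TPM in control and 13.1, 15.8 and 16.03 TPM in MT, a 4.04-fold fall (log2 difference -1.95, standard error 0.08, adjusted p = 5.90e-07). ERCC2 (ENSBTAG00000002072) had 21.6, 21.8 and 21.6 TPM in control and 6.83, 6.50 and 7.34 TPM in MT, a 3.14-fold fall (log2 difference -1.52, standard error 0.05, adjusted p = 1.52e-07). The subunits of the nuclease that makes the first of the paired cuts were both listed at 0 in every control library. In MT, ERCC1 had 22.1, 18.04 and 20.2 TPM and ERCC4 had 13.2, 16.4 and 15.01 TPM. The nuclease of the other cut, ERCC5, had 1.74, 2 and 1.77 TPM in control and 0.31, 0.34 and 0.51 TPM in MT. ERCC1 and ERCC4 passed the minimum level only through MT and ERCC5 only through control, which fixed the direction of each.

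The Fanconi anaemia pathway unhooks crosslinks between strands. Among its 3 genes, FANCA and FANCI were higher and FANCD2 was lower in MT (61.6% higher and 34.1% lower over all tested genes). FANCA passed only through the MT libraries and so had to be higher. FANCD2 (ENSBTAG00000010077) had 46.0, 46.3 and 45.7 TPM in control and 26.6, 28.0 and 27.2 TPM in MT (log2 difference -0.74, standard error 0.03, adjusted p = 4.14e-07). FANCI (ENSBTAG00000009097), with which it forms a clamp on DNA, had 6.90, 7.34 and 7 TPM in control and 16.3, 19.5 and 17.9 TPM in MT (log2 difference 1.22, standard error 0.07, adjusted p = 3.76e-06, and 0.0505 after quantile normalization). FANCA, a subunit of the ligase that modifies this pair, was listed at 0 in each control library and at 3.30, 2.30 and 3.21 TPM in MT, and was not called after quantile normalization.

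**Figure D3:**
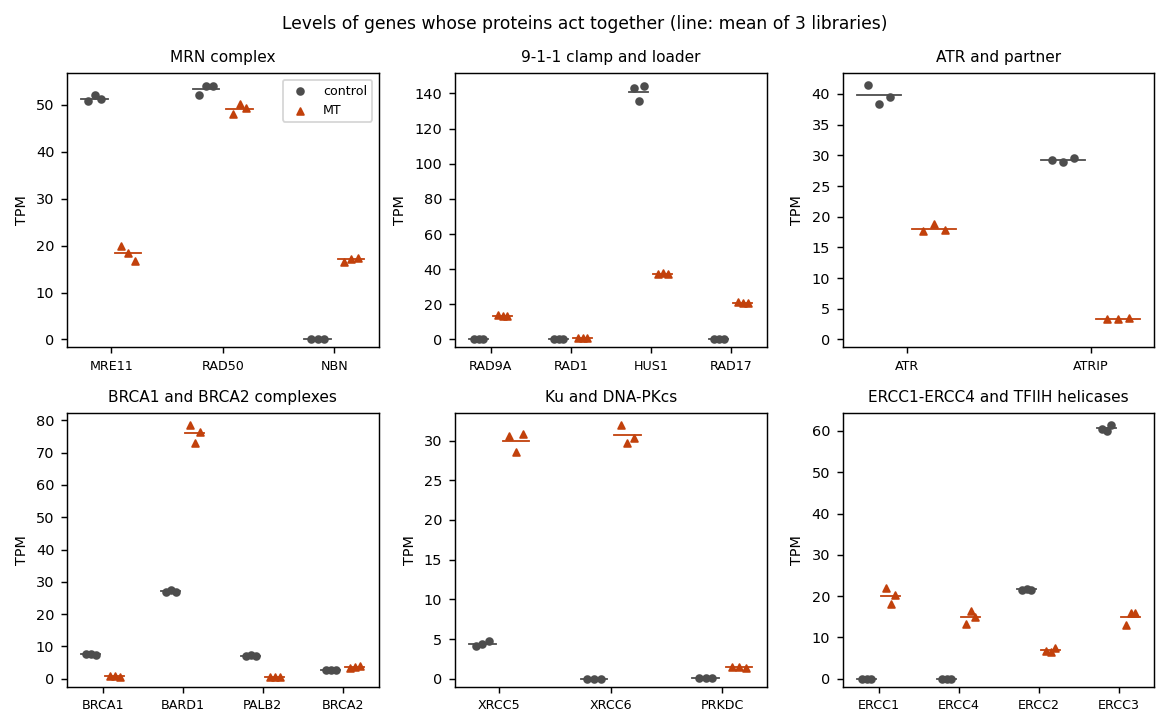
TPM of genes whose proteins act together, in each control library (grey circles) and MT library (orange triangles), with the mean of 3 libraries as a line and a separate TPM axis in each panel. NBN, RAD1, RAD17, ERCC1 and ERCC4 are listed at 0 in every control library. In the same panels, MRE11, RAD50, HUS1, ERCC2 and ERCC3 stand higher in control than in MT. For RAD50 this order is reversed after median centring and after quantile normalization. XRCC5, BARD1 and BRCA2, shown with XRCC6, BRCA1 and PALB2, stand higher in MT.

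The ratio of 2 genes within a library does not depend on a constant by which that library is scaled, although it does change with quantile normalization, and was taken for 6 pairs of partners above 0 in all libraries, chosen after their values were seen and therefore not tested. BRCA1 per BARD1 was 0.280 ± 0.00656 in control and 0.0107 ± 0.00253 in MT (SD, n = 3 each), 26.1-fold lower. PALB2 per BRCA2 was 2.64 ± 0.0794 in control and 0.141 ± 0.00987 in MT (SD, n = 3 each), so that the more abundant partner changed between the groups. ATRIP per ATR was 0.735 ± 0.0245 in control and 0.185 ± 0.00617 in MT (SD, n = 3 each). MRE11 per RAD50 was 0.962 ± 0.0135 in control and 0.375 ± 0.0391 in MT (SD, n = 3 each). FANCI per FANCD2 moved up, from 0.154 ± 0.00442 to 0.656 ± 0.0426 (SD, n = 3 each). The ratio that moved least was ERCC2 per ERCC3, with 0.357 ± 0.00581 in control and 0.463 ± 0.0547 in MT (SD, n = 3 each).

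**Figure D4:**
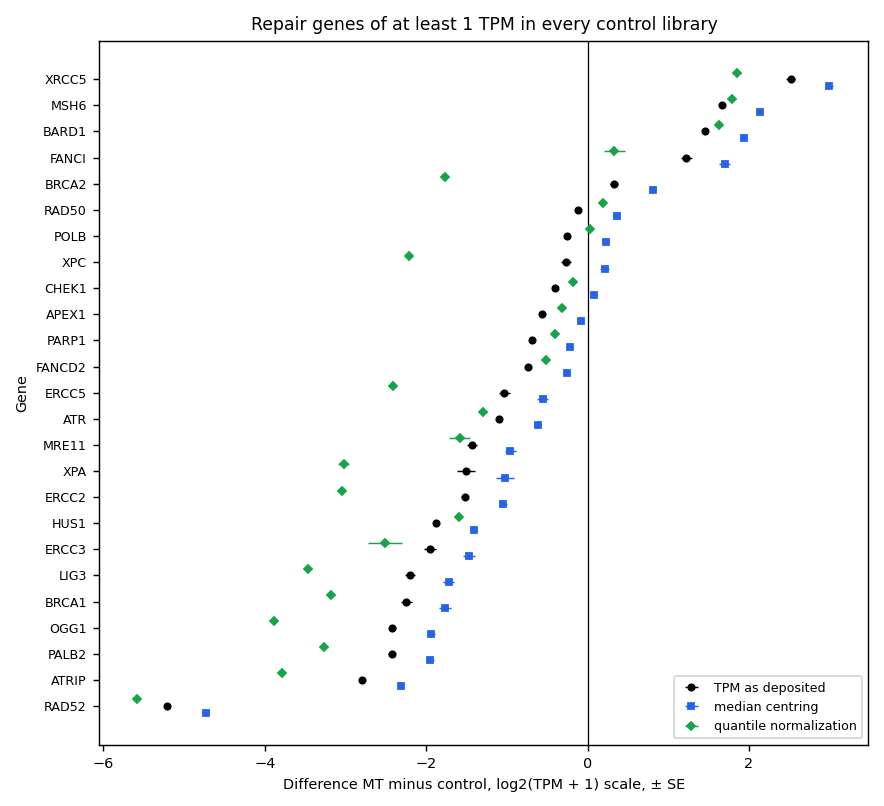
Difference between MT and control on the log2(TPM + 1) scale, with its standard error, for the 25 repair genes of at least 1 TPM in every control library, from TPM as deposited (black), after median centring (blue) and after quantile normalization (green). Of the 25 genes, 20 are below 0 and 5 above 0 with TPM as deposited (60.3% and 32.3% of all 6746 tested genes at that control level were called lower and higher), and the points of RAD50, POLB, XPC, CHEK1 and BRCA2 cross 0 under 1 or both of the other scalings.

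The count of higher and lower repair genes depended on the scaling of the libraries. Genes with at least 1 TPM in all 6 libraries had a median log2 level that shifted by -0.48 from control to MT, and centring each library on that median left 28 repair genes higher and 16 lower, where 70.4% of all tested genes were higher and 25.4% lower. The 4 genes that then turned from lower to higher were those with the smallest falls, RAD50, POLB, XPC and CHEK1. Quantile normalization sets all libraries to 1 distribution, in which genes listed at 0 take a value above 0. It left 16 higher, 22 lower and 6 not called, where 46.4% of all tested genes were higher and 44.4% lower. Falls of RAD52, ATRIP, PALB2, BRCA1, OGG1, LIG3, ERCC3, HUS1, ERCC2, XPA, MRE11, ATR, ERCC5, FANCD2, PARP1 and APEX1, and rises of XRCC5, MSH6 and BARD1, kept their direction and stayed under the threshold with both scalings. So did the rises of ATM, CHEK2, NBN, RAD9A, RAD17, RAD54L, XRCC2, XRCC6, PARP2, PMS2, ERCC1 and ERCC4, which passed only through the MT libraries. Of the falls, those of RAD52, BRCA1, PALB2 and ERCC5 had the matching limit, since these genes passed only through control. Median centring, which raises every MT value relative to control by the same amount, left small falls for APEX1 (-0.082), PARP1 (-0.21) and FANCD2 (-0.26).

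Replicate libraries lay close together for most repair genes. The methods describe separate production runs, whereas the sample labels give only a replicate number. Standard errors and p-values measure the spread between these libraries. How independent the libraries are, and whether the control values are complete, could not be told from TPM, and this limits every standard error, p-value and control value of 0 given here. Among genes with a group mean of at least 5 TPM, the median coefficient of variation was 1.87% over 22 repair genes in control (2.73% over all 5947 such genes) and 3.70% over 33 repair genes in MT (4.48% over all 9280 such genes). Among those 33 repair genes of at least 5 TPM in MT, MSH3 and ATM were the most variable, with 39.4% and 17.0%. Both were picked out after their values were seen. For MSH3 this was more than for 96.6% of the 3948 tested genes within 2-fold of its level, and for ATM more than for 90.7% of 3789 such genes.

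Other genes of damage signalling and repair, 131 in a list written from general knowledge, moved in both directions as well. Of 105 tested, 57 were higher and 43 were lower in MT and 5 were not called, where 61.6% of all tested genes were higher and 34.1% lower. Of the 105, 29 were listed at 0 in every control library (33.8% of all tested genes). With median centring 70 were higher and 30 lower (70.4% and 25.4% of all tested genes). With quantile normalization 55 were higher and 46 lower (46.4% and 44.4% of all tested genes). The median log2 difference was 0.46, where it was 1.12 over all tested genes and 0.856 over those with a symbol. Among the 61 with at least 1 TPM in all 6 libraries, 17 were higher and 39 were lower, with a median of -0.41, where 36.4% of all such genes were higher and 55.6% lower, with a median of -0.27. The largest falls among genes of at least 5 TPM in both groups were in FANCC, a subunit of the Fanconi anaemia ligase, with 82.0, 82.6 and 80.6 TPM in control and 10.7, 11.7 and 13.4 TPM in MT, and in the end-cleaning enzymes APTX (log2 difference -2.26, standard error 0.08, adjusted p = 3.08e-07) and TDP2 (log2 difference -2.18, standard error 0.03, adjusted p = 2.72e-09). The largest rises were in RIF1, which restrains resection, with 5.40, 5.39 and 5.44 TPM in control and 25.8, 24.6 and 22.2 TPM in MT, in CDK7, the kinase of TFIIH (log2 difference 1.45, standard error 0.03, adjusted p = 1.38e-08), and in CUL4A, the scaffold of the ligase that holds DDB1 and DDB2 (log2 difference 1.42, standard error 0.04, adjusted p = 2.01e-07). The most abundant genes listed at 0 in every control library were NEIL3, a glycosylase for oxidised bases, with 74.1, 72.4 and 82.3 TPM in MT, SWSAP1, a recombinase cofactor, with 54.6, 53.9 and 53.0 TPM in MT, and REV3L, the catalytic subunit of a translesion polymerase, with 32.3, 46.5 and 49.4 TPM in MT.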

How the data were processed

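RNA-seq of 6 libraries was used, 3 per group, with groups and replicate numbers from the sample titles. The authors deposited TPM per gene. According to the methods and the submitters' processing notes, reads were filtered with fastp and FastQC 0.11.9, aligned with STAR 2.7.9a and counted with featureCounts of Subread 1.6.3. The methods name genome ARS-UCD1.3 and the notes ARS-UCD1.2. The step from counts to TPM and the strand setting are not given in the sources used here. The methods name Smart-seq2 and the labels a TruSeq kit. Without strand, reads of overlapping genes cannot be told apart. In RefSeq ARS-UCD2.0, used for neighbours only, 18 of 48 repair genes overlapped another gene, 13 of them a protein-coding gene (RAD50, RAD9A, RAD54L, XRCC3, OGG1, MUTYH, APEX1, MSH6, DDB2, ERCC1, ERCC2, FANCA and FANCI), and their values are uncertain to that extent.

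Genes that reached 1 TPM in 3 or more libraries were fitted on log2(TPM + 1) by limma 3.58.1 under R 4.3.3 (lmFit, then eBayes with its intensity trend), unpaired, and adjusted with the Benjamini-Hochberg method at 0.05. Differences on this scale understate changes of low genes. The count model that the study used needs counts. The fit was tested on simulated data. Figures were drawn with matplotlib 3.10.9. Any of the 49 repair genes could be named. Of the wider list, the 3 largest rises and falls with means of at least 5 TPM in both groups and the 3 most abundant genes listed at 0 throughout a group were named. The repair genes and lists were chosen with earlier results of these data known, and no set test was made. The settings changed in turn were the pseudocount (0.1), the filter (none, or a minimum of 5 TPM), quantile normalization, median centring, genes with a symbol, no trend, a replicate block and each library left out in turn. After seeing the data, a fit on genes of at least 1 TPM in all 6 libraries was added.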

Additional observations from a re-analysis of the deposited data

How the results depend on the processing

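Leaving out each library in turn left 24 repair genes higher and 20 lower, with a median log2 difference of 1.12 to 1.15, 56 to 57 genes of the wider list higher and 43 to 44 lower, and 7319 to 7338 of all tested genes higher and 4004 to 4049 lower. The median over repair genes moved to 1.41 with a pseudocount of 0.1 (1.3 over all tested genes), 0.59 without the filter (0.27), -0.12 at a minimum of 5 TPM (0.59), -0.15 with quantile normalization (0.042), 1.62 with median centring (1.6) and -0.69 with at least 1 TPM in all 6 libraries (-0.27). That last restriction, which removes genes at 0 in control by construction, left 2183 of all genes, 5 repair genes and 17 genes of the wider list higher. Under median centring the difference was reversed for CHEK1 (0.077), RAD50 (0.36), POLB (0.23) and XPC (0.21). Under quantile normalization the sign changed for RAD50 (0.20), POLB (0.027), BRCA2 (-1.77), XRCC3 (-0.57), PRKDC (-1.14), DDB1 (-0.026), DDB2 (-0.42) and FANCA (-0.13), of which POLB, DDB1 and FANCA were not called, and XRCC1, MSH3 and FANCI kept their sign but were not called either. The cause was not tested. The share of higher genes among called repair genes was 54.5% (64.4% among all called genes), 63.6% with median centring (73.5%) and 42.1% with quantile normalization (51.1%).

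With a replicate block, 24 repair genes were higher and 20 lower, as without it, and 56 genes of the wider list were higher. The methods say that treatments ran concurrently within a run, but not that a replicate number marks the same run in both groups, and deviations from the group means correlated between same-numbered libraries at -0.0115, -0.000679 and 0.0588. TPM holds no counts, so low values such as those of MUTYH, RAD1, LIG4 and XRCC4 carry an unknown counting error.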
